A study of Mus musculus with 60 samples.

Results

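The genes described here are the secreted Wnt ligands, the enzymes and carriers that make and export them, their receptors and inhibitors, the Dishevelled proteins, and the TCF/LEF factors with their TLE corepressors. Members were picked by gene symbol, and the families were chosen with earlier results of these data known. The mouse annotation holds 67 symbols of these families, and 60 of them were among the 18088 genes of the table. The other 7, Wnt1, Wnt3a, Wnt8a, Wnt8b, Dkk1, Dkk4 and Rspo4, were not analysed here. All 60 passed the filter on low values, a normalized count of at least 10 in at least 5 libraries.

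RNA was sequenced from the prefrontal cortex of 60 C57BL/6J mice, 30 wild type (WT) and 30 with 1 copy of Chd8 carrying the N2373K change (Het). Chd8 encodes a chromatin remodeler linked to autism. Pups of each genotype received fluoxetine, a selective serotonin reuptake inhibitor, lithium, which inhibits the kinase GSK3, or vehicle, from postnatal day 3 to 24 through the milk of their mothers, and tissue was taken on postnatal day 25. Each of the 12 groups, made of 2 genotypes, 3 treatments and both sexes, held 5 libraries. The vehicle is named without further detail. The allele is present in all tissues, the dose that reached a pup is unknown, and the labels do not tie pups to litters. The p-values therefore measure only the spread between these libraries, some of which can share a mother.

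In canonical Wnt signaling a lipid-modified ligand bridges a Frizzled receptor and the coreceptor Lrp5 or Lrp6, Dishevelled is recruited to the membrane, and the complex that destroys beta-catenin is held back. Beta-catenin then enters the nucleus, joins TCF/LEF factors and displaces TLE corepressors from their targets. R-spondins bound to Lgr receptors raise the number of Frizzled receptors at the cell surface by removing the ligases Rnf43 and Znrf3. In the brain the pathway patterns the cortex, drives progenitor division and synapse formation, and maintains the blood-brain barrier. Chd8 is known to bind beta-catenin and to restrain its target genes.

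Libraries held 24.1 M to 31.6 M reads (median 28.3 M), of which 0.120% to 0.147% fell on the 60 genes. Chd8 itself was at 3094 ± 91.7 normalized counts (SD, n = 30) in WT and 2671 ± 134 (n = 30) in Het, and the log2 difference was -0.23 under vehicle, -0.20 under fluoxetine and -0.22 under lithium (limma adjusted p = 6.67e-06, 7.23e-05 and 7.51e-06). A normalized count is a gene's reads divided by the size factor of its library. Slc17a7, a marker of cortical excitatory neurons, was high in every library, at 34169 or more normalized counts. Markers of tissue next to the prefrontal cortex varied widely. The choroid plexus gene Ttr ranged from 0 to 14344 and the olfactory bulb and catecholamine gene Th from 17.9 to 1559. The 16 libraries with the highest olfactory bulb score comprised 5 Het vehicle, 5 Het fluoxetine, 3 WT vehicle, 2 WT lithium, 1 Het lithium and no WT fluoxetine library. A further 5 libraries stood apart in Wnt10b, at 189 to 479 normalized counts. They were 1 Het fluoxetine, 3 Het lithium and 1 WT lithium library. Counts of changed genes below are given without either set of libraries where leaving them out moved the count by more than 1.5 times.

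Levels between genes were compared per kilobase of exon, on the scale of normalized counts per kilobase averaged over 60 libraries. Dkk3, a divergent member of the Dickkopf family of secreted inhibitors, was the highest at 2238. Dvl1 followed at 564, Porcn, the acyltransferase that attaches the lipid to Wnt proteins, at 469, and the receptor Fzd3 at 372. The highest ligands were Wnt7b at 256, Wnt4 at 205 and Wnt9a at 204. Wls, the carrier that brings Wnt proteins to the cell surface, was at 179 and Lrp6 at 139. In the nucleus, the corepressors Tle4 at 217 and Tle3 at 160 stood above the TCF/LEF factors, of which Tcf7 was the highest at 46.7. Lef1 was at 18.4, and the corepressor Tle6 lay below it at 13.4. The lowest members were Sfrp5 at 3.09, Wnt11 at 1.64 and Wnt9b at 1.28 normalized counts per kilobase. Sfrp5 had no read in 10 libraries, Wnt9b in 6 and Wnt11 in 2.

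**Figure D1:**
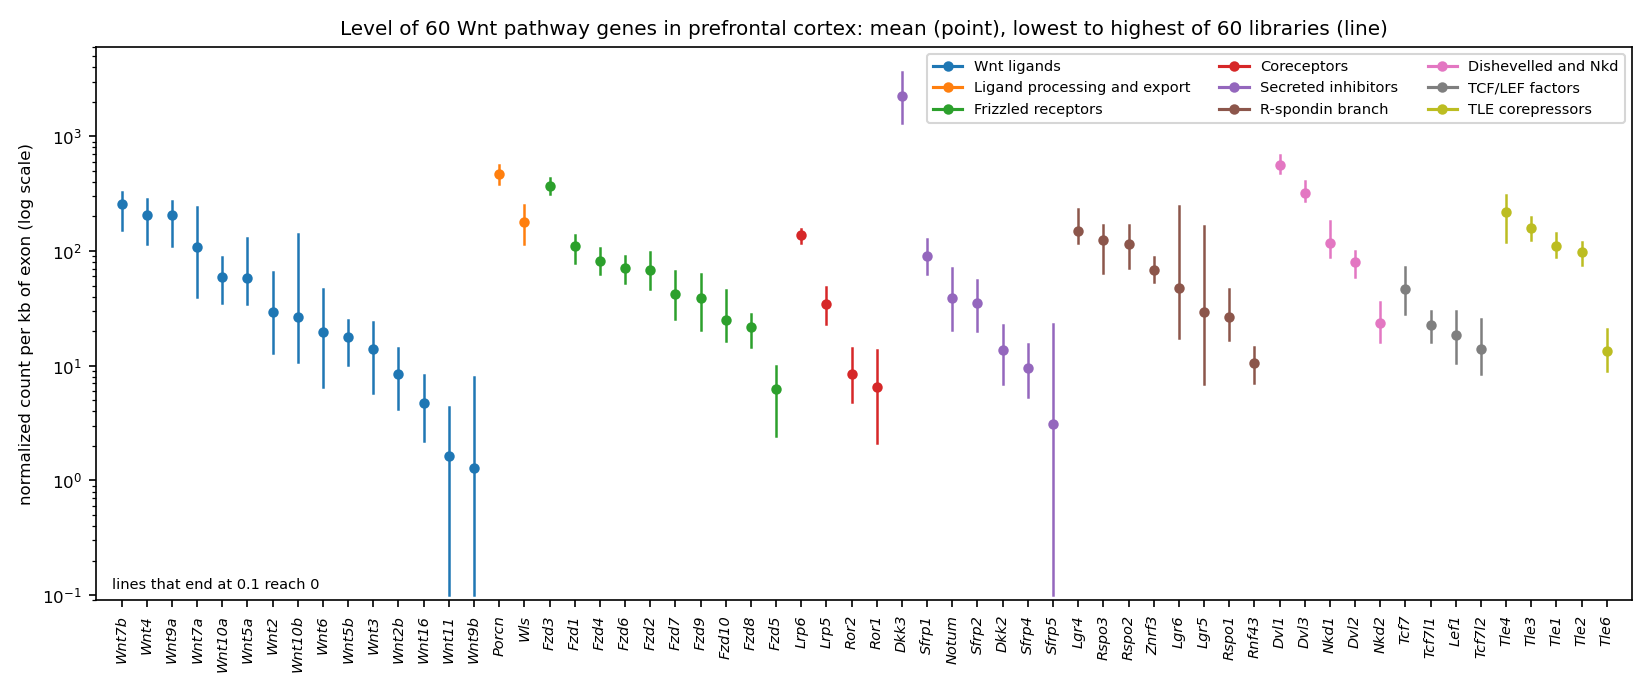
Normalized count per kilobase of exon (log axis) of each of the 60 genes, ordered by role. The point is the mean and the line runs from the lowest to the highest of 60 libraries. Dkk3 stands highest at 2238 and Wnt9b lowest at 1.28.

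Comparisons were fitted with limma on log2(normalized count + 1) over all 60 libraries, with Benjamini-Hochberg adjustment over 17807 genes, and a gene was called when its adjusted p was under 0.05. Fold changes are on this log2 scale, which understates changes of low genes. Of the 60 members, 26 were called in at least 1 of 7 comparisons averaged over both sexes, and 34 in none. The same share over all genes is not given, and 1 of the 7 comparisons alone called 32.9% of all genes. The 26 are therefore not shown to exceed the background. Fluoxetine in Het mice gave the most calls. Here 22 members changed, 36.7% of them, beside 32.9% of all genes tested, so the share was close to the background. The directions were uneven, with 6 members higher and 16 lower, while all genes split into 16.9% higher and 16% lower. The median change was -0.12 over the 60 members and 0.01 over all genes, and 31.7% of members had a change above 0 against 51.1% of all genes. In bulk tissue, fewer cells that express a gene and less of its RNA per cell cannot be told apart.

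Fluoxetine in WT mice changed 4 members (6.67%), all lower, beside 8.2% of all genes called and 5.06% called lower. Lithium changed 9 members in Het (15%), 1 higher and 8 lower, beside 9.14% of all genes, 5.3% higher and 3.84% lower. In WT it changed 1 member, which was higher, beside 2.97% of all genes called and 1.9% called higher. Under fluoxetine, Het differed from WT in 2 members (3.33%), both lower, beside 7.33% of all genes called and 3.88% called lower. Under vehicle no member was called between the genotypes by limma, edgeR or DESeq2, beside 0.0562% of all genes. An unadjusted p under 0.05 was found for 15 of the 60 members, beside 7.79% of all genes. Under lithium none was called either by these tools, beside 0.0393% of all genes, and 6 had an unadjusted p under 0.05, beside 6.46%. Both drug comparisons within a genotype share its vehicle libraries, and the Het against WT comparison under fluoxetine shares libraries with the drug comparisons too, so their results are not independent.

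**Figure D2:**
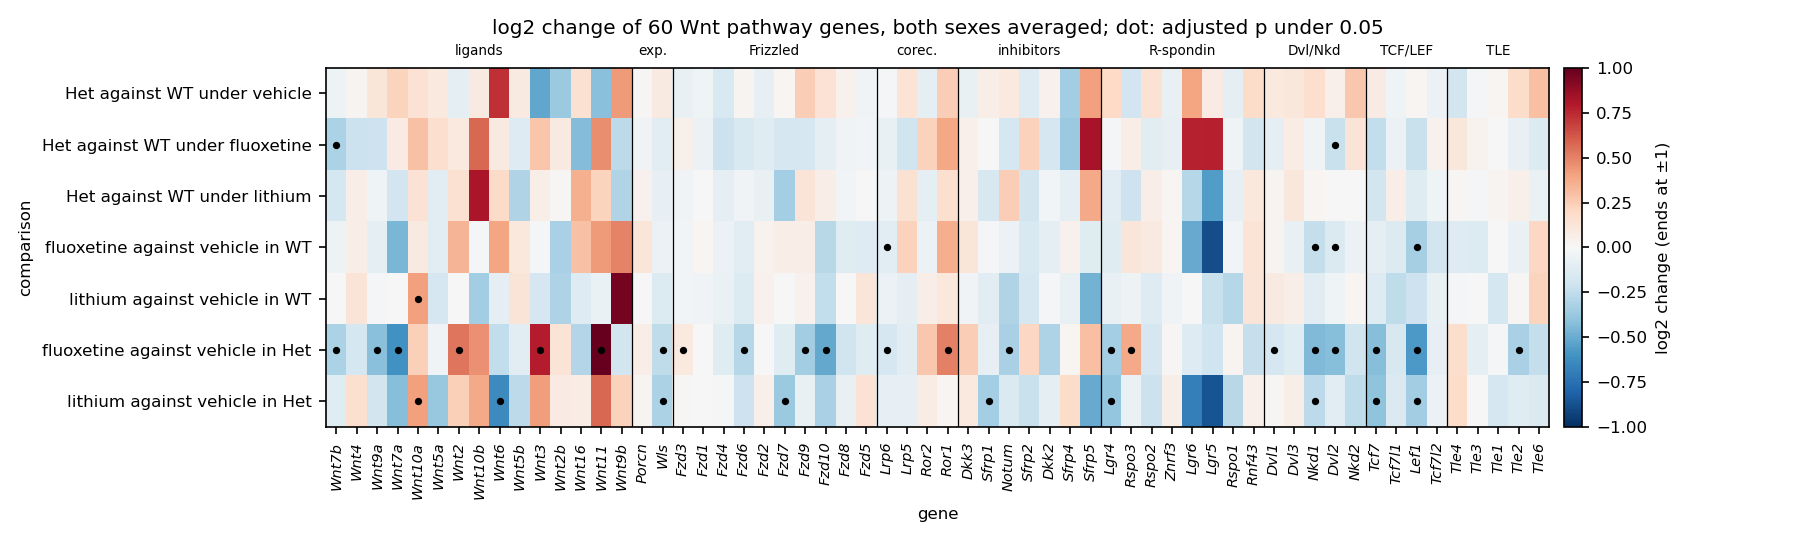
log2 change (color, ends at ±1) of each of the 60 genes along the horizontal axis in the 7 comparisons averaged over both sexes. A dot marks an adjusted p under 0.05. Dots are most frequent for fluoxetine in Het, with 6 higher and 16 lower.

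Among the 15 ligands, 3 rose and 3 fell with fluoxetine in Het. Wnt7a and Wnt7b, which act on brain endothelium through the coreceptor Adgra2, and Wnt9a fell. Wnt7b had a lowest, median and highest normalized count of 1095, 1295 and 1430 in Het vehicle and of 746, 988 and 1431 in Het fluoxetine, so the ranges overlapped at the top. Its change was -0.31 ± 0.10 (log2, SE, limma adjusted p = 0.0135), and the call was lost without Het fluoxetine male 3. Wnt7a ran from 222 to 760 (median 408) in Het vehicle and from 126 to 451 (median 295) in Het fluoxetine, a change of -0.60 ± 0.20 (adjusted p = 0.0142). Wnt7a also had a value of -0.46 ± 0.20 in WT, with 9 of 10 libraries below the vehicle mean of their sex, but did not pass there (adjusted p = 0.137). Wnt9a fell by 0.41 ± 0.11 (adjusted p = 0.00378), from a median of 742 to 583 with overlapping ranges.

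The 3 ligands that rose with fluoxetine in Het were low in level. Wnt3, a canonical ligand, was at 21.4, 28.0 and 40.4 (lowest, median, highest) in Het vehicle and at 17.9, 58.6 and 74.1 in Het fluoxetine. It rose by 0.78 ± 0.20 (log2, SE, limma adjusted p = 0.00168), with 9 of 10 libraries above the mean of the Het vehicle libraries of the same sex. All such counts of libraries below are against the mean of the same sex. In WT, Wnt3 had medians of 44.0 under vehicle and 45.2 under fluoxetine, so Het vehicle lay below and Het fluoxetine above both. Het against WT was called for Wnt3 neither under vehicle (-0.52 ± 0.20, adjusted p = 0.524) nor under fluoxetine (0.28 ± 0.20, adjusted p = 0.390). The difference of the fluoxetine effect between genotypes was 0.80 ± 0.28 for Wnt3 and did not pass (adjusted p = 0.0914). Wnt11, a ligand mostly tied to beta-catenin-independent signaling, rose by 1.31 ± 0.36 (adjusted p = 0.00349), from a median of 3.20 in Het vehicle, where the highest library had 8.88, to a median of 11.2 in Het fluoxetine, where the lowest had 5.25. These are a handful of reads per library. Wnt2 rose by 0.53 ± 0.20 (adjusted p = 0.0363), a call lost in 7 of 20 fits with 1 library left out. Wls fell by 0.25 ± 0.10 (adjusted p = 0.0421), a call lost in 14 of 20 fits with 1 library left out, while Porcn was at 1377 ± 74.4 in Het vehicle and 1447 ± 128 in Het fluoxetine (SD, n = 10).

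Of the 10 Frizzled receptors, 3 fell and 1 rose with fluoxetine in Het. Fzd10 ranged from 73.6 to 148 (median 97.4) in Het vehicle and from 53.2 to 90.4 (median 68.2) in Het fluoxetine. It fell by 0.52 ± 0.12 (log2, SE, limma adjusted p = 0.000588). Fzd6, a receptor known from planar cell polarity, fell by 0.29 ± 0.08 (adjusted p = 0.00337), from a median of 375 to 316. Fzd9 fell by 0.35 ± 0.12 (adjusted p = 0.0243), a call lost in 3 of 20 fits with 1 library left out and under quantile normalization. Fzd3, a receptor needed for axon tract formation, had a change of only 0.10 ± 0.03 (adjusted p = 0.0202), and this call was lost when libraries were rescaled to the same total or quantile normalized. Among the 4 coreceptors, Lrp6 fell in both genotypes. Its lowest, median and highest counts were 1723, 1995 and 2080 in Het vehicle and 1602, 1766 and 1928 in Het fluoxetine, a change of -0.17 ± 0.04 (adjusted p = 0.000191). In WT they were 1894, 1993 and 2135 under vehicle and 1720, 1834 and 2004 under fluoxetine, a change of -0.12 ± 0.04 (adjusted p = 0.0268). The vehicle groups of both genotypes thus centered on nearly the same value. Ror1, a receptor for Wnt5a, rose by 0.51 ± 0.18 in Het (adjusted p = 0.0281), a call lost in 5 of 20 fits with 1 library left out. Lrp5 and Ror2 were not called in any of the 7 comparisons.

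Notum, the enzyme that strips the lipid from secreted Wnt proteins, was the 1 member among 7 secreted inhibitors that changed with fluoxetine in Het, at -0.33 ± 0.13 (log2, SE, limma adjusted p = 0.0457), a call lost in 12 of 20 fits with 1 library left out. In the R-spondin branch the receptor and a ligand moved in opposite directions. Lgr4, the most widely expressed R-spondin receptor, had 883, 1019 and 1364 normalized counts (lowest, median, highest) in Het vehicle and 694, 813 and 1070 in Het fluoxetine. It fell by 0.34 ± 0.08 (adjusted p = 0.000770), and 9 of 10 libraries lay below the Het vehicle mean. Rspo3 rose by 0.38 ± 0.09 (adjusted p = 0.000598), from 200.4, 363 and 424 in Het vehicle to 342, 441 and 525 in Het fluoxetine. Its WT vehicle libraries had a median of 391, between these values. The ligases Rnf43 and Znrf3 were not called in any of the 7 comparisons.

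Dishevelled relays the signal from Frizzled to the beta-catenin destruction complex, and Nkd1 binds Dishevelled and restrains it as a feedback inhibitor. With fluoxetine in Het, 3 of the 5 members of this group fell and none rose. Dvl2 showed the smallest adjusted p of all 60 members. Its lowest, median and highest normalized counts were 494, 558 and 634 in Het vehicle and 377, 413 and 449 in Het fluoxetine, so the ranges did not overlap. The change was -0.42 ± 0.05 (log2, SE, limma adjusted p = 1.54e-09). Males ran from 506 to 561 under vehicle and from 388 to 449 under fluoxetine, and females from 494 to 634 and from 377 to 436. Both sexes were thus separate. In WT, Dvl2 was at 484, 525 and 621 under vehicle and 422, 490 and 529 under fluoxetine, an overlapping and smaller change of -0.14 ± 0.05 (adjusted p = 0.0362). The WT change was lost when 9 of the 20 libraries were left out in turn. Lithium groups lay between, at a median of 511 in WT and 516 in Het, and were not called.

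Dvl1 fell in Het by 0.17 ± 0.04 (log2, SE, limma adjusted p = 0.000402), from 2697, 2869 and 3411 (lowest, median, highest) to 2385, 2587 and 2892. In WT it did not pass, at 0.03 ± 0.04 (adjusted p = 0.720), from 2504, 2744 and 2987 to 2576, 2804 and 2892. The Het median of Dvl1 was above that of WT under vehicle and below it under fluoxetine, and neither difference between genotypes was called (adjusted p = 0.524 and 0.0965). Dvl3, the remaining Dishevelled gene, had -0.12 ± 0.05 in Het (adjusted p = 0.0511) and did not pass. Nkd1 fell in both genotypes. It was at 503, 634 and 833 in Het vehicle and 412, 464 and 566 in Het fluoxetine, a change of -0.44 ± 0.07 (adjusted p = 7.04e-06), and at 489, 558 and 697 in WT vehicle and 404, 501 and 547 in WT fluoxetine, a change of -0.24 ± 0.07 (adjusted p = 0.0322). All 10 fluoxetine libraries of either genotype lay below the vehicle mean for Nkd1.

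The test of the difference between the genotypes, the fluoxetine effect in Het minus that in WT, called 2 of 60 members beside 1.7% of all genes. Both were Dishevelled genes. The difference was -0.28 ± 0.06 for Dvl2 (95% interval -0.41 to -0.15, limma adjusted p = 0.0260) and -0.19 ± 0.05 for Dvl1 (95% interval -0.29 to -0.09, adjusted p = 0.0407). For Dvl3 it was -0.04 ± 0.07 (95% interval -0.18 to 0.09, adjusted p = 0.762), an interval that includes part of that of Dvl1 and of Dvl2. Tle2 came next at -0.25 ± 0.07 and did not pass (adjusted p = 0.0538). Without the 16 libraries of high olfactory bulb score the difference of Dvl2 was -0.25 (adjusted p = 0.140) and neither gene was called. With the olfactory bulb and myelin scores as covariates it was -0.25 (adjusted p = 0.0811), again with no call, and the Dvl2 call was lost without Het vehicle female 4. The call of Dvl1 was lost in 22 of 40 fits that each left out 1 library.

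Because the difference was called for 2 of the 3 Dishevelled genes, whose effects were not compared with each other, the 250 bases before the RefSeq transcription start of each are shown (GRCm38.p6, plus strand). Dvl1 lies on chromosome 4 at 155847402 to 155859303, Dvl2 on chromosome 11 at 70000595 to 70012301 and Dvl3 on chromosome 16 at 20516982 to 20534010. The windows are chr4:155847152-155847401, chr11:70000342-70000591 and chr16:20516736-20516985. They lie upstream of the first exon of GENCODE M21, except for the last 4 bases of that of Dvl3. Capitals mark the E-box CACGTG, which reads the same on both strands.
Dvl1 upstream: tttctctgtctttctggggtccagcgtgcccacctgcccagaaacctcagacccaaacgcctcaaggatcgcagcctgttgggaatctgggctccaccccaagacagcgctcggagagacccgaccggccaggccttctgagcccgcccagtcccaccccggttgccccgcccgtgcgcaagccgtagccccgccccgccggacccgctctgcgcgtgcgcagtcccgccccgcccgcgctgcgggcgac
Dvl2 upstream: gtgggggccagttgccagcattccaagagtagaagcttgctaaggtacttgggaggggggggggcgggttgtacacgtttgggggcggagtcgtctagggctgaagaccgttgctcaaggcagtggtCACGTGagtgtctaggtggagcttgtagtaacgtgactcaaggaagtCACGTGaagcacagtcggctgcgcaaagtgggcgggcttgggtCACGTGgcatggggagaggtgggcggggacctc
Dvl3 upstream: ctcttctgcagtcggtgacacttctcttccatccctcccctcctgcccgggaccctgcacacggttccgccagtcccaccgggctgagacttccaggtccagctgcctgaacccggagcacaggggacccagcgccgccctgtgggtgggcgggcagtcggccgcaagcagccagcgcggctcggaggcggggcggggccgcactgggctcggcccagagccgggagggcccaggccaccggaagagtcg
The Dvl2 window holds 3 E-boxes, whose first bases lie 123, 76 and 33 bases before the start, and the others hold none. Over 32851 windows of the same length, 6.02% hold CACGTG at least once and 20 windows (0.0609%) hold it 3 or more times. RefSeq windows were matched for 42 of the 60 members, 53 windows in all, and 7 of these hold CACGTG, those of Dvl2, Fzd9, Lef1, Tle3, Tle4, Tle6 and Wnt9a. CTTTGA, the core bound by TCF/LEF factors, searched on both strands and not overlapping with CACGTG, occurs in 13.8% of all windows and in 5 of the 53, those of Fzd1, Lef1, Ror1, Wnt11 and Wnt5b. The 3 Dishevelled windows do not contain it. These windows and motifs were chosen after the expression values were seen, and a match describes letters only.

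**Figure D3:**
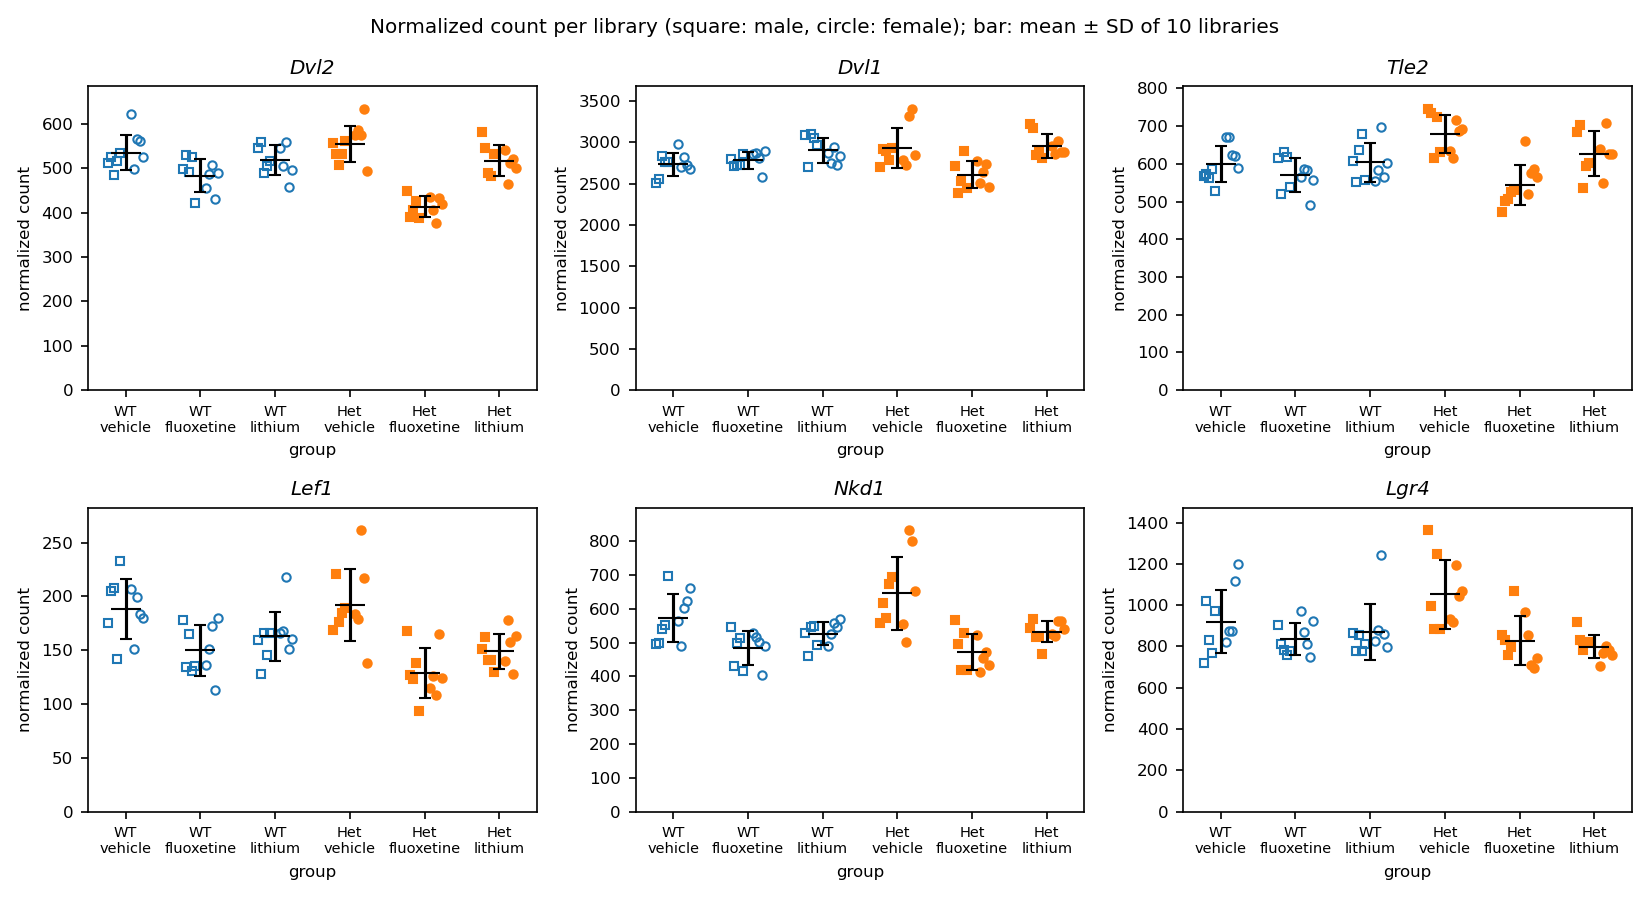
Normalized count of Dvl2, Dvl1, Tle2, Lef1, Nkd1 and Lgr4 in each library by genotype and treatment (squares male, circles female; bar, mean ± SD of 10 libraries). For Dvl2 the Het fluoxetine libraries, 377 to 449, lie below all Het vehicle libraries, 494 to 634.

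TCF/LEF factors were low in level, and 2 of 4 fell with fluoxetine in Het. Lef1 was at 138, 184 and 262 normalized counts (lowest, median, highest) in Het vehicle and 93.2, 125 and 168 in Het fluoxetine, a change of -0.57 ± 0.10 (log2, SE, limma adjusted p = 1.91e-05). In WT it was at 141, 192 and 233 under vehicle and 113, 144 and 180 under fluoxetine, a change of -0.33 ± 0.10 (adjusted p = 0.0306). This WT call was lost in 10 of 20 fits with 1 library left out. All 10 fluoxetine libraries of each genotype lay below the vehicle mean, and the vehicle medians of the genotypes lay close, at 184 and 192. Tcf7 fell by 0.43 ± 0.13 in Het (adjusted p = 0.00741), and Tcf7l1 and Tcf7l2 were not called in any of the 7 comparisons. Of the 5 TLE corepressors, Tle2 was the 1 that changed with fluoxetine in Het when both sexes were averaged. It was at 615, 690 and 747 in Het vehicle and 472, 528 and 660 in Het fluoxetine, a change of -0.32 ± 0.05 (adjusted p = 4.74e-06). In WT the medians were 587 and 575. Het vehicle stood above WT vehicle for Tle2 by 0.18 ± 0.05, which did not pass (adjusted p = 0.343). Tle2 ends 58 bases from Tle6, which lies on the opposite strand, and the kit marks strand but the counting is not stated to use it.

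**Figure D4:**
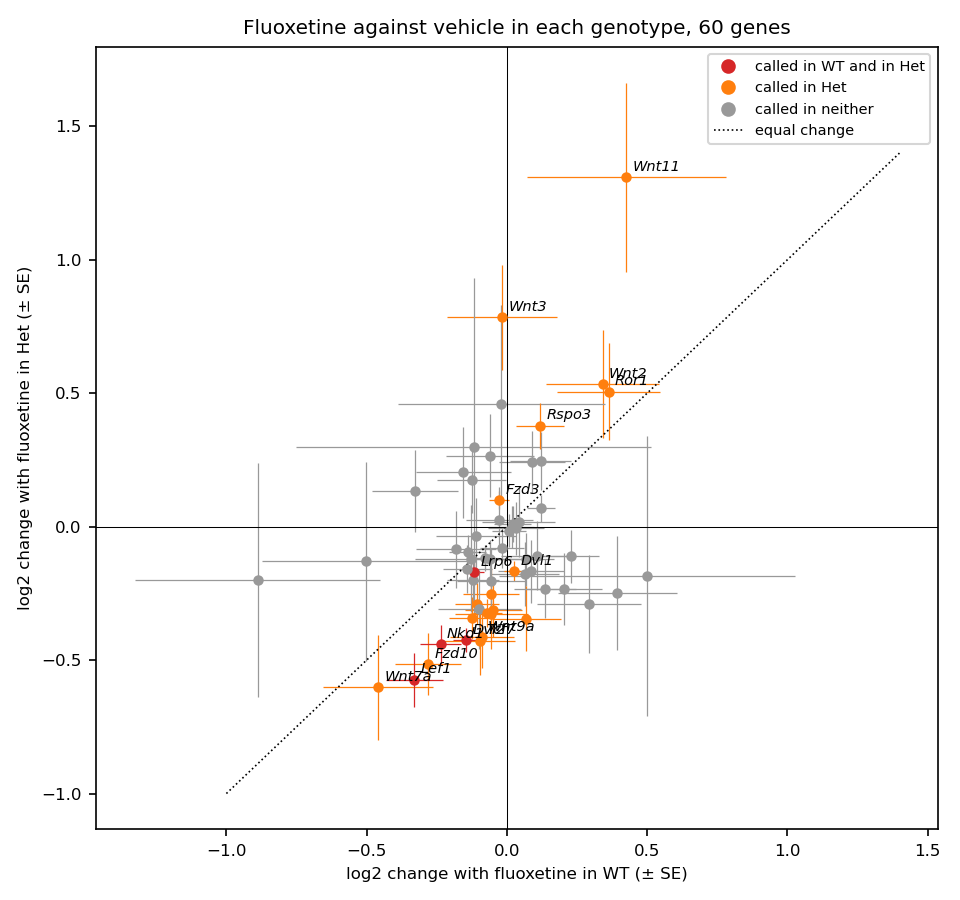
log2 change with fluoxetine in WT (horizontal, ± SE) against Het (vertical, ± SE) for the 60 genes, with the line of equal change. Lrp6, Nkd1, Dvl2 and Lef1, called in both genotypes, lie at the lower left, and Dvl1 lies at 0.03 in WT and -0.17 in Het.

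The 4 members called in WT with fluoxetine, Lrp6, Nkd1, Dvl2 and Lef1, were among the 22 called in Het. Of all genes 32.9% were called in Het, and the share among all genes called in WT is not given. These comparisons share no library. Both took their spread from the same fit, and pups of both can share a mother, so they are not independent. Without the 16 libraries of high olfactory bulb score, of which 3 were WT vehicle, no member was called in WT, while the changes were -0.09 for Lrp6, -0.21 for Nkd1, -0.15 for Dvl2 and -0.32 for Lef1, close to those with all libraries. No member was called without WT fluoxetine female 4 or without WT fluoxetine male 5 either. With WT vehicle female 4 or male 5 left out, 1 was called. With any of 6 further WT libraries left out, 2 were called. The WT call was lost in 10 of these 20 fits for Lef1, in 9 for Dvl2, in 6 for Nkd1 and in 5 for Lrp6. In Het, between 17 and 23 members were called under every alternative and with any library left out. When the 16 libraries were left out, the Het calls of Wnt7a, Wnt2, Ror1, Fzd9 and Tcf7 were lost, at changes about as large as with all libraries, -0.65, 0.58, 0.52, -0.37 and -0.39. With the olfactory bulb and myelin scores as covariates the calls of Wnt2, Wls, Fzd3 and Notum were lost, and the changes of Wnt2, Wls and Notum were smaller, at 0.27, -0.14 and -0.21. Leaving out the 16 libraries gave larger changes of Wls and Notum, at -0.42 and -0.50.

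Under fluoxetine, Dvl2 and Wnt7b were lower in Het than in WT. Dvl2 differed by -0.22 ± 0.05 (log2, SE, limma adjusted p = 0.00202), and all 10 Het libraries lay below the WT mean. Wnt7b differed by -0.32 ± 0.10 (adjusted p = 0.0440), with 7 of 10 below, and this call was lost in 13 of 20 fits with 1 library left out. Without the 16 libraries of high olfactory bulb score no member was called, and without the 5 of high Wnt10b only 1 was. Under vehicle, the 2 members with the smallest p were Tle2 and Wnt6, which was at 59.6 in Het and 35.2 in WT (0.73 ± 0.21, adjusted p = 0.343). Of the 60 members, 38 were above 0 in Het against WT under vehicle, which is 63.3%, beside 48.5% of all genes.

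With lithium in Het, 8 members fell and 1 rose. Lgr4 fell by 0.39 ± 0.08 (log2, SE, limma adjusted p = 0.00169), to 703, 794 and 916 normalized counts (lowest, median, highest), with 10 of 10 libraries below the Het vehicle mean. Lgr4 followed the olfactory bulb score across libraries (r = 0.67, rho 0.61, and r 0.62 without the 2 most distant libraries, permutation p = 1e-05 and 3e-05, adjusted p = 0.000204 and 0.000505). That score averaged 0.45 in Het vehicle and -0.36 in Het lithium, on a log2 scale. With the olfactory bulb and myelin scores as covariates the lithium change of Lgr4 was -0.25, and it was still called. Sfrp1, which binds and sequesters Wnt proteins, fell by 0.34 ± 0.08 (adjusted p = 0.00420), from 372, 415 and 559 to 278, 331 and 419. Fzd7 fell by 0.37 ± 0.10 (adjusted p = 0.0153), from a median of 199 to 157. The others that fell were Nkd1, by 0.26 ± 0.07 to a median of 534, Lef1, by 0.35 ± 0.10 to a median of 146, and Wls, Tcf7 and Wnt6. Wnt10a rose by 0.41 ± 0.12 in Het (adjusted p = 0.0204), from 134 ± 29.7 to 176 ± 25.1 (SD, n = 10). In WT it rose as well, by 0.41 ± 0.12 (adjusted p = 0.0399), with means of 119 and 159, and all 10 lithium libraries lay above the vehicle mean. It was the 1 member called with lithium in WT. Wnt10a and Wnt6 lie next to each other on chromosome 1, 6193 bases apart and on the same strand, and Wnt6 fell by 0.64 ± 0.21 in Het (adjusted p = 0.0487). This call of Wnt6 was lost under 6 of 11 alternatives, quantile normalization and equal totals among them, and in 14 of 20 fits with 1 library left out, and the change was -0.40 with the tissue scores as covariates. For Wls, at -0.19 with these covariates, and for Tcf7 the lithium calls were lost in 11 and 12 of the 20 fits, and for Wnt10a in WT in 12. Without the 16 libraries of high olfactory bulb score, the Het lithium calls of Sfrp1, Wls, Tcf7, Wnt10a and Wnt6 were lost. In Het 6 members were then called. The WT lithium call of Wnt10a was lost there too.

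Without the 5 libraries of high Wnt10b, 4 of them lithium libraries, 2 members were called with lithium in Het in place of 9, and none in WT. The changes in Het were then -0.23 for Nkd1, -0.33 for Lef1, 0.34 for Wnt10a, -0.24 for Fzd7 and -0.20 for Wls, and that of Wnt10a in WT was 0.37. Those of Fzd7 and Wls were smaller by more than 1.5 times, and the others were close to the values with all libraries. With single libraries left out the count in Het ran from 4, without Het vehicle female 3, to 13. The difference of the lithium effect between genotypes called no member by limma, edgeR or DESeq2, beside 0% of all genes, and 5 members had an unadjusted p under 0.05, beside 3.45% of all genes. That of Lgr4 was -0.31 ± 0.11 (adjusted p = 0.990), and that of Wnt10a -0.00065 ± 0.16.

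Within a sex, 19 members were called in at least 1 of 10 comparisons, and the same share over all genes is not given. With fluoxetine in Het 13 were called in males, beside 22.7% of all genes, and 13 in females, beside 15.1%. In males Dkk3 rose by 0.59 (limma adjusted p = 0.00528) and Wnt10a and Wnt11 rose as well. Among the members that fell there were Wnt7a at -0.99, Lef1 at -0.55 and Tle2 at -0.44. In females Rspo3 rose by 0.54 (adjusted p = 0.00205) and Wnt3 by 1.14 (adjusted p = 0.00399). Dvl2 fell in both, by 0.38 in males and by 0.46 in females, as did Lef1, Nkd1, Lrp6, Lgr4, Dvl1 and Tle2. Without the 16 libraries of high olfactory bulb score no member was called in males. Without the 5 libraries of high Wnt10b the count in males was 8, and without Het fluoxetine male 3 alone it was 7. In females the count was 7 without Het vehicle female 3.

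In WT, fluoxetine changed Dvl2 in females, by -0.22 (limma adjusted p = 0.0445), beside 2.5% of all genes, a call lost without the 16 libraries. It changed no member in males, beside 1.34%, with 3 at an unadjusted p under 0.05, beside 11.1%. Lithium changed Wnt10a, which rose by 0.69, and Sfrp1, which fell by 0.45, in Het males, beside 2% of all genes, and neither was called without the 16 libraries, without the 5, or without Het lithium male 5 alone. It changed no member in Het females, beside 0.629%, where 12 had an unadjusted p under 0.05, beside 13.8% of all genes, DESeq2 called 3 and edgeR none, and 8 were called by limma without the 16 libraries. With lithium no member was called in WT males, beside 0.0786% of all genes, and 6 had an unadjusted p under 0.05, beside 9.09%. None was called in WT females, beside 0.118%, and 1 had an unadjusted p under 0.05, beside 11.3%. Between genotypes under vehicle no member was called in males, beside 0.0168%, with 8 at an unadjusted p under 0.05, beside 8.22%. None was called in females, beside 0.0225%, with 7 at an unadjusted p under 0.05, beside 6.45%. In these comparisons without a call, apart from that of Het females, edgeR and DESeq2 called none either. The difference of the fluoxetine or the lithium effect between the sexes was taken as the average over both genotypes. It called no member by limma, edgeR or DESeq2, beside 0% of all genes. An unadjusted p under 0.05 was found for 2 members in each, beside 4.6% of all genes for fluoxetine and 5.5% for lithium. A difference between the sexes within Het alone was not tested. Calls made in 1 sex are therefore not shown to differ from the other, and not shown to be alike.

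Several members followed markers of neighboring tissue or of blood vessels across libraries. Each of the 60 members was correlated with 16 measures, the mean log2 level of 15 marker lists and the level of Cirbp, over 60 libraries after removing group means, 960 relations in all. Cirbp, a cold-inducible RNA-binding protein, was added after the values were seen. Unless given otherwise, two-sided permutation p-values of the relations below were 1e-05, the smallest that 100000 permutations can give, with adjusted values of 0.000204 for Pearson's r and 0.000259 for Spearman's rho. In 11 members the closest relation reached 0.7 in size. Lgr5 and Lgr6, R-spondin receptors known from stem cells, followed the olfactory bulb score. The Pearson r was 0.95 for Lgr5 (rho 0.94, and r 0.94 without the 2 most distant libraries) and 0.91 for Lgr6 (rho 0.90, and 0.90 without them). Lgr5 ranged from 85.9 to 1703 normalized counts within Het vehicle alone. Among the 16 libraries of high score r was 0.94 for Lgr5, and among the other 44 it was 0.88. The group means removed were those of all 60 libraries, so each of these values still depends on both sets.

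Lef1 followed the endothelial score with r = 0.74 (rho 0.74, and 0.74 without the 2 most distant libraries), and so did Nkd1 with 0.72 (rho 0.68, and 0.71 without them). Fzd6 followed the score of mural cells, the cells around vessels, with 0.71 (rho 0.68, and 0.67 without them). With fluoxetine in Het, 16% of all genes were called lower and 16.9% higher. Of 14 endothelial markers, 9 fell and 1 rose there. Tie1 fell by 0.63 and Kdr by 0.49, both receptors of endothelial cells, while the glucose transporter Slc2a1 rose by 0.38. The summed level of the 14 ran from 13589 to 18574 normalized counts in Het vehicle and from 13405 to 17783 in Het fluoxetine, none was at 0 in any library, and the median change was -0.24. In WT with fluoxetine 1 endothelial marker rose and none fell, beside 8.2% of all genes called. The sum of the 14 ran from 14220 to 18330 under vehicle and from 14444 to 18234 under fluoxetine. Mural markers fell in 3 of 9 with fluoxetine in Het, with sums of 7379 to 11011 under vehicle and 5933 to 10152 under fluoxetine, and leptomeningeal markers in 8 of 14, with sums of 19221 to 52299 and 21812 to 49563. The part of vessel cells in the changes of Lef1, Nkd1 and Fzd6 was not tested.

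Wnt3 followed the myelin score with r = 0.75 (rho 0.69, and 0.68 without the 2 most distant libraries). Of 16 myelin markers 4 rose with fluoxetine in Het and none fell, beside 16.9% of all genes called higher and 16% lower. The median change of the 16 was 0.35. Their sum ran from 45337 to 179486 in Het vehicle and from 50696 to 228290 in Het fluoxetine. With the olfactory bulb and myelin scores as covariates the change of Wnt3 with fluoxetine in Het was 0.52 in place of 0.78, and it was still called. Tle4 fell with a rising leptomeningeal score, at r = -0.79 (rho -0.74, and -0.73 without the 2). Wnt4 and Dkk3 ran against the score of septum and hypothalamus, at -0.76 each (rho -0.69 and -0.71, and r -0.75 and -0.73 without the 2). Dvl2 was less tied to any list, with its closest relation to astrocytes at r = 0.45 (rho 0.39, permutation p = 0.00191 and 0.00703, adjusted p = 0.0104 and 0.0300, and r 0.44 without the 2). Its fluoxetine call in Het was kept under all 11 alternatives, at -0.40 without the 16 libraries of high olfactory bulb score.

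Wnt10b, a ligand low in most libraries, followed Cirbp with r = 0.89 (rho 0.84, and 0.85 without the 2 most distant libraries), and Wnt7b ran against it with -0.81 (rho -0.72, and -0.76 without them). Cirbp ranged from 927 to 3165 normalized counts. It was at 1795 ± 546 in Het fluoxetine, 1392 ± 244 in Het vehicle and 1493 ± 299 in WT fluoxetine (SD, n = 10). Whether this difference has a part in the lower Wnt7b of Het fluoxetine was not tested. Wnt10b was at 479 in Het fluoxetine male 3, at 427 and 406 in Het lithium male 4 and 5, at 419 in Het lithium female 5 and at 189 in WT lithium male 5. Without these 5 libraries r was 0.81 for Wnt10b (rho 0.80) and -0.68 for Wnt7b (rho -0.63). The group means removed were those of all 60 libraries, so the 5 still entered these values through the means. Whether the relations rest on the 5 libraries is therefore not settled.

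**Figure D5:**
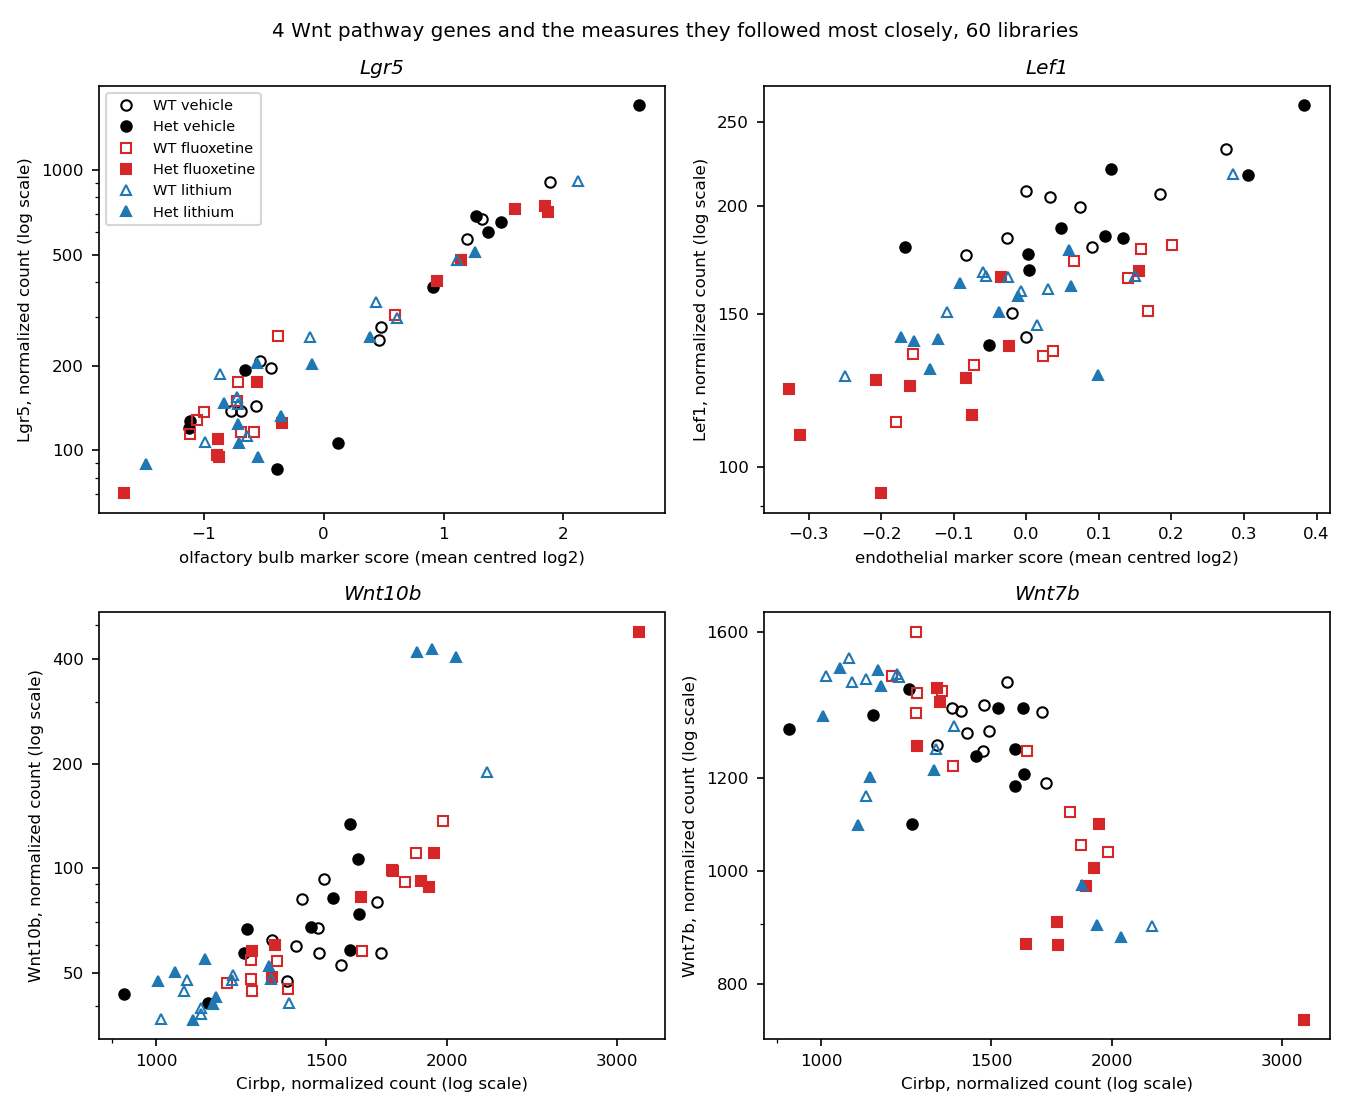
Normalized count (log axis) of Lgr5, Lef1, Wnt10b and Wnt7b in 60 libraries against the olfactory bulb score, the endothelial score and the normalized count of Cirbp (log axis); filled symbols are Het and open ones WT. Lgr5 rises with the score over all treatments, and Wnt10b and Wnt7b run in opposite directions with Cirbp.

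The other genes of the pathway were counted from lists chosen with earlier results of these data known. Beside these counts, fluoxetine called 16% of all genes lower and 16.9% higher in Het. In WT it called 8.2% of all genes, 5.06% of them all as lower. In the destruction complex, 17 genes that include its scaffolds, kinases and beta-catenin, 7 fell and none rose with fluoxetine in WT, and 5 fell and 5 rose in Het. Axin2, a scaffold and the classic feedback target of beta-catenin, went from 844 ± 80.1 to 680 ± 24.2 normalized counts (SD, n = 10) in Het, a change of -0.31 (limma adjusted p = 3.71e-07), and from 819 ± 43.9 to 710 ± 48.5 in WT, a change of -0.21 (adjusted p = 0.000863). Apc2 fell by 0.26 in Het and by 0.15 in WT. The kinase Csnk1a1 rose by 0.19 in Het (adjusted p = 2.61e-05), and its effect differed between the genotypes by 0.25 (adjusted p = 0.0172). With lithium Ctnnb1, which encodes beta-catenin, fell by 0.30 in Het (adjusted p = 7.52e-10) and by 0.23 in WT (adjusted p = 3.08e-06), and Apc fell by 0.24 and by 0.22.

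Among 15 tested target genes of beta-catenin, 5 fell and 1 rose with fluoxetine in Het, and 3 fell and 1 rose in WT. The counts for Het here and in the lists below stand beside 16% of all genes called lower and 16.9% higher. Vegfa fell by 0.41, Mycn by 0.66 and Ccn4 by 0.63 in Het, and Id2 rose by 0.17. None of the 15 was called with lithium in either genotype, beside 9.14% of all genes in Het and 2.97% in WT. The 15 include none of the 60 members, and Axin2 was counted with the destruction complex. Of the members, Nkd1, Lef1 and Tcf7 were among the 8 that fell with lithium in Het, while 1 member rose. Of 20 other secreted and membrane regulators, 4 fell and 1 rose with fluoxetine in Het. These were Adgra2, the partner of Wnt7a and Wnt7b at endothelium, by -0.50 (limma adjusted p = 1.83e-05), Apcdd1 by -0.37, Ndp by -0.38 and Gpc6 by -0.27, and Tpbg rose by 0.55. Of 15 nuclear partners, 5 fell and 1 rose, among them Hic1 by -0.93 (adjusted p = 7.77e-10) and the beta-catenin coactivators Bcl9l by -0.31 and Bcl9 by -0.24. Of 18 planar cell polarity genes, 4 fell and 2 rose. Celsr3, an atypical cadherin, fell by 0.35 and Dact1, which binds Dishevelled, by 0.45 in Het, and in WT they fell by 0.15 and 0.54.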

How the data were processed

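Expression was measured in 60 libraries made with a stranded, poly(A)-selecting kit, per the labels' protocols. GRCm38, R 3.6.0, Salmon 0.11.2 and DESeq2 1.19.11 were used, per the submitters' processing notes. The authors deposited a normalized signal for each gene and library, and every deposited value was a whole read count divided by 1 size factor per library (0.856 to 1.12; 100% whole at a tolerance of 0.001). The deposited genes carried Ensembl identifiers. Of the 18088, 18077 were named by GENCODE M21, and coordinates are those of GENCODE M21.

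The low-value filter (10 or more in 5 or more libraries) kept 17807 genes. limma 3.58.1 (R 4.3.3) was fitted on log2(value + 1) with 12 group means, 48 residual degrees of freedom and a mean-variance trend. Tests were two-sided and adjusted over all genes, with calls at an adjusted p under 0.05. Effects were averaged over both sexes, taken within a sex, or compared as differences. Full statistics are given for members called, up to the 15 with the smallest p in a comparison, and at most 4 genes per other pathway list and 3 per marker list are named. Values of single libraries are shown for the 15 members with the smallest p.

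Alternatives were edgeR 4.0.16 and DESeq2 1.42.0 on recovered reads, a pseudocount of 5, no filter, quantile normalization, equal totals, the compared groups alone, a replicate block, tissue scores as covariates, leaving out 16 libraries by olfactory bulb score or single libraries, and, chosen after the values were seen, leaving out 5 libraries by Wnt10b. The fit was tested on simulated data. The members and lists were chosen with earlier results of these data known. Upstream sequences were taken from RefSeq (GRCm38.p6), and correlations used Python 3.11.15 with SciPy 1.17.1.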

Additional observations from a re-analysis of the deposited data

Results flagged for a closer look

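In 288 groups of 5 libraries, 12 for each of the 24 members the text describes most closely, the highest or lowest library was compared with its neighbor. The gap exceeded Dixon's critical share of the range, 0.710, in 15 groups. Chance alone flags about 1 in 20 groups, so this number is near what chance gives. Wnt10b contributed 5 of them. It was at 479 in Het fluoxetine male 3 (nearest library 110), 419 in Het lithium female 5 (47.3), 134 in Het vehicle male 5 (66.6), 91.3 in WT fluoxetine male 5 (57.7) and 189 in WT lithium male 5 (49.1), all the highest of their group.

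Lgr6 was highest in Het vehicle male 1, at 1687 (nearest 560), and in WT fluoxetine female 5, at 486 (nearest 224). WT lithium female 3 was the highest of its group for Lef1, at 218 (nearest 168), and for Lgr4, at 1241 (nearest 880). WT fluoxetine female 4 was the lowest for Dvl1, at 2576 (nearest 2809), and for Fzd6, at 256 (nearest 367), and WT lithium male 5 was the lowest for Fzd6, at 268 (nearest 333). Nkd1 stood out in WT vehicle male 5 at 697 (nearest 552), Wnt3 in Het lithium male 4 at 60.1 (nearest 43.6) and Wnt6 in WT vehicle female 4 at 73.9 (nearest 38.5). The fluoxetine effect differed between the genotypes by the interaction test for Dvl1, by -0.19, and for Dvl2, by -0.28.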

How the results depend on the processing

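Of 40 calls of single members, averaged over both sexes or as a difference, none reversed under the 11 alternatives, 15 kept their call under all of them and 19 in every fit that left out 1 library. For fluoxetine in Het, 22 members were called and 17 to 23 under every setting. Fitting only the groups compared called 1 member for Het against WT under fluoxetine (2 in the fit of all groups), 2 for lithium in WT (1), 5 for lithium in Het (9), 0 for fluoxetine in WT females (1), 2 for it in Het males (13), 5 for it in Het females (13), 0 for lithium in Het males (2) and 0 for the fluoxetine difference (2). Without the 16 libraries of high olfactory bulb score, 0 were called for Het against WT under fluoxetine, fluoxetine in WT (both sexes or females), fluoxetine or lithium in Het males, and the fluoxetine difference, and 8 for lithium in Het females (0 in the fit of all libraries). Tissue scores as covariates gave 3 for lithium in WT, 5 for lithium in Het, 7 for fluoxetine in Het females and 0 for the fluoxetine difference. Without the 5 libraries of high Wnt10b, 1 was called for Het against WT under fluoxetine, 0 for lithium in WT, 2 for lithium in Het, 8 for fluoxetine in Het males, 0 for lithium in Het males and 1 for the fluoxetine difference. Quantile normalization gave 0 for fluoxetine in WT females and 1 for lithium in Het females, and DESeq2 gave 3 for the latter and 4 for the fluoxetine difference. The cause of these changes was not tested. In 3 of these settings the number of libraries was smaller, and its part was not tested either. With 1 library left out, counts ran from 1 to 4 for Het against WT under fluoxetine, 0 to 4 for fluoxetine in WT, 0 to 2 for lithium in WT, 4 to 13 for lithium in Het, 0 to 1 for fluoxetine in WT females, 7 to 13 for it in Het males, 7 to 18 for it in Het females, 0 to 4 for lithium in Het males or females, and 0 to 4 for the fluoxetine difference. Deviations of libraries with the same replicate number had a median correlation of 0.0011 (lowest -0.276, over 0.1 in 59 of 330 pairs). For pairs of unlike numbers the median was -0.0018, and their share over 0.1 is not given. A replicate block gave 23 calls for fluoxetine in Het and 3 for the fluoxetine difference. Over all genes the fluoxetine difference was called in 303 genes by limma and 714 by DESeq2. Low members such as Wnt11 rest on a few reads per library, which limits the precision of their changes.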

Other observations

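Members differed in the measure they followed most closely over the 60 libraries. For 9 members it was the olfactory bulb score, for 8 the endothelial score and for 7 the level of Cirbp. Of the 60 members, 9 lie on chromosome 11. Wnt9b and Wnt3 lie there 24328 bases apart and on opposite strands, and Wnt3 rose with fluoxetine in Het while Wnt9b, with no read in 6 libraries, was not called.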
